A study of Homo sapiens with 29 samples.

Results

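Decitabine given alone to tumours of parental MDA-MB-231 cells is described here, from the 4 libraries of decitabine-treated tumours and the 4 libraries of vehicle-treated tumours that carry those treatments in their labels, which are 8 of the 29 libraries of the study. MDA-MB-231 is a human triple-negative breast cancer line of mesenchymal type, and all tumours grew orthotopically in SCID-beige mice, which lack working T and B cells and have impaired natural killer cells. Decitabine-treated mice received 0.4 mg/kg of the drug, and vehicle-treated mice received vehicle at the same times. Dosing began on day 6 after injection of 250000 cells and lasted 26 days, as 2 cycles of 12 days separated by 2 days of rest, with decitabine on days 1 to 4 and 10 to 11 of a cycle. Responses were set beside those of 4 other groups of the study. These were parental tumours given decitabine with doxorubicin at 1 mg/kg (4 libraries), parental tumours given doxorubicin alone (3 libraries), and tumours of a paclitaxel-resistant derivative of the line, started from 1500000 cells and dosed from day 16, given decitabine (3 libraries) or vehicle (4 libraries). Both sides of each mouse were injected, and which libraries came from 1 animal is not given, so some samples of a group may share a mouse and the p-values hold for the spread among the samples.

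Decitabine is a cytidine analogue that cells take up, phosphorylate and build into DNA during replication. The DNA methyltransferase DNMT1, which copies methylation to the new strand, becomes trapped on the analogue, and methylation is then diluted as cells divide. The drug is known for switching on genes whose promoters were silenced by methylation, among them cancer-testis genes, and for provoking an interferon response through transcripts of repeated elements. Methylation itself was not analysed here, and the values below are levels of transcripts.

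The decitabine libraries held between 4445548 and 5166195 counts and the vehicle libraries between 4022389 and 4666413. Genes that mark MDA-MB-231 were present throughout, with summed levels of 8014 to 9565 CPM (counts per scaled library size) in decitabine tumours and 9489 to 10210 CPM in vehicle tumours, and none of these 14 genes was at 0. Of 10 markers of luminal breast cells, 6 could be tested. The 10 summed to 380 to 594 CPM in decitabine tumours and 549 to 688 CPM in vehicle tumours. ESR1, PGR and FOXA1 had too few counts to be tested and TFF1 had none in the 8 libraries. In a principal component analysis of the 8 libraries, vehicle library 3 stood apart at 41.2 on a first component that held 42.9% of the variance, while the other 7 libraries lay between -27.1 and 15.8. Without vehicle library 3 the median log2 difference was -0.439 for the hypoxia and glycolysis genes, 0.167 for the interferon-stimulated genes and -1.14 for the small nuclear RNA genes described below.

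Across 13495 genes tested, 225 (1.67%) differed between decitabine and vehicle tumours at an adjusted p under 0.05 in edgeR's quasi-likelihood test, here termed called. Of these, 107 (0.793% of genes tested) were higher and 118 (0.874%) were lower in decitabine tumours. Scaling by the upper quartile gave 84 higher and 150 lower, and DESeq2's size factors gave 115 higher and 104 lower, so the split by direction depended on the scaling. At an unadjusted p under 0.05 there were 2587 genes (19.2%), and DESeq2 called 499. For decitabine alone, these numbers are the background for the gene groups below. The calls drew their estimate of spread from all 29 libraries. In a fit of the 8 libraries alone, 2 genes were called, FKBP10 and INPP5D (adjusted p = 0.0479 for each), while 2191 genes had an unadjusted p under 0.05.

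Single libraries moved the number of calls strongly. Without decitabine library 3, 6 genes were called, without vehicle library 4 there were 12, and without vehicle library 3 there were 37. Leaving out decitabine library 2 or vehicle library 2 gave 99 and 118 calls, decitabine library 1 gave 151, and leaving out decitabine library 4 or vehicle library 1 raised the number to 383 and 608. All 6 genes called without decitabine library 3 were among the 225, and these same genes were called in each of the 8 fits that left out 1 library. They are INPP5D, FKBP10, LRRC17, NOL4L, FERMT1 and ITGA10. For decitabine against vehicle, every other gene named below lost its call without decitabine library 3. ESCO2, RRM2, WEE1, CDKN1C, IRF9 and INPP5F, described below, also lost theirs without vehicle library 3 or vehicle library 4.

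**Figure D1:**
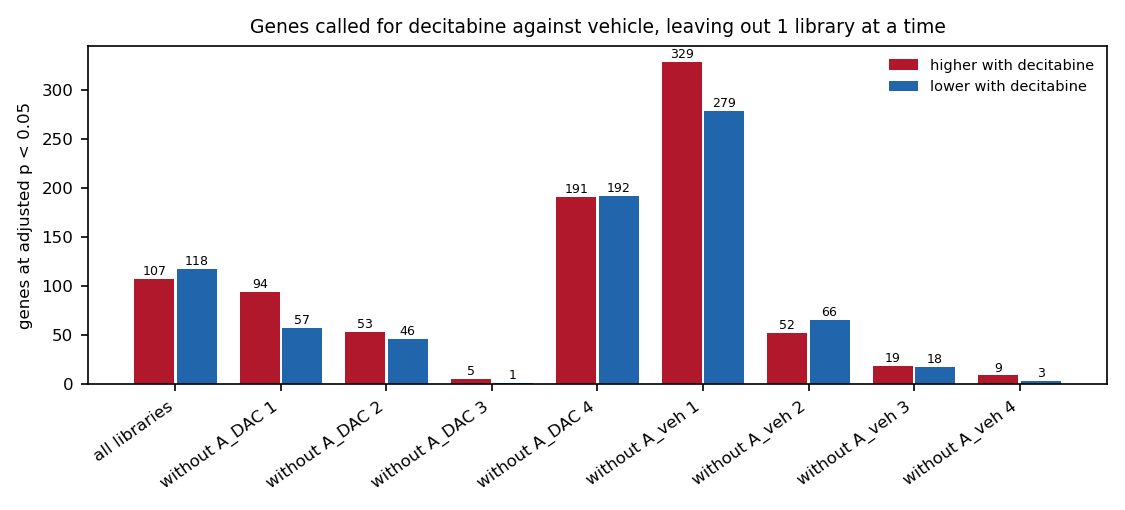
Number of genes called higher and lower in decitabine than in vehicle parental tumours, as bars side by side. Bars are given with all libraries and with each of the 8 libraries left out in turn. With all libraries, 107 genes were higher and 118 lower. Without decitabine library 3 these numbers were 5 and 1, and without vehicle library 1 they were 329 and 279.

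Of the 6 genes called whichever library was left out, 5 were higher in decitabine tumours. The largest change among them was in FKBP10 (ENSG00000141756, chr17:41812680-41823217, plus strand, GRCh38), which encodes a prolyl isomerase of the endoplasmic reticulum that assists collagen folding. FKBP10 had 7.78, 6.90, 12.1 and 5.11 CPM in the decitabine libraries, against 0.464, 0.217, 1.54 and 0.684 CPM in the vehicle libraries. The lowest decitabine library was thus above the highest vehicle library, and the fitted difference was 3.46 on the log2 scale (SE 0.56, adjusted p = 0.00336). INPP5D (ENSG00000168918, chr2:233059967-233207903, plus strand) encodes an inositol lipid phosphatase known mainly from blood cells. It had 3.99, 4.79, 3.71 and 3.71 CPM with decitabine, against 0.464, 0.652, 0 and 0.456 CPM with vehicle. These levels rest on 81 counts over the decitabine libraries and 7 counts over the vehicle libraries, and the difference was 3.24 (log2, SE 0.55, adjusted p = 0.00479). LRRC17 (ENSG00000128606, chr7:102912991-102944949, plus strand) encodes a secreted protein with leucine-rich repeats. It had 3.42, 3.07, 2.34 and 1.62 CPM in decitabine tumours, against 0.232, 0.217, 0.257 and 0.684 CPM in vehicle tumours, or 53 against 6 counts in all. The groups did not overlap, and the difference was 2.83 (log2, SE 0.41, adjusted p = 0.00216). LRRC17 had too few counts to be tested in the fit of the 8 libraries alone. INPP5D and LRRC17 lay under the level of 5 CPM set for named genes and are described because they were called whichever library was left out, a choice made after their values were seen.

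NOL4L and FERMT1 were well expressed in both groups. NOL4L (ENSG00000197183, chr20:32443059-32585074, minus strand) had 35.5, 28.96, 32.6 and 18.1 CPM in decitabine libraries and 13.2, 14.6, 11.1 and 12.6 CPM in vehicle libraries. Its mean was 28.8 ± 7.61 CPM with decitabine and 12.9 ± 1.45 CPM with vehicle (SD, n = 4 each), a difference of 1.16 (log2, SE 0.18, adjusted p = 0.00216). FERMT1 (ENSG00000101311, chr20:6074845-6123544, minus strand) encodes an epithelial kindlin, an adaptor that activates integrins. It had 98.9, 61.2, 86.6 and 83.3 CPM with decitabine, against 40.8, 44.5, 38.6 and 43.1 CPM with vehicle, and the vehicle values lay within a narrow range below all decitabine values. The difference was 0.98 (log2, SE 0.15, adjusted p = 0.00216).

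ITGA10 was the 1 gene of the 6 that was lower with decitabine, and like NOL4L and FERMT1 it was not called in the fit of the 8 libraries alone (adjusted p = 0.0887 for ITGA10 and NOL4L and 0.0595 for FERMT1). It encodes the alpha 10 integrin subunit, part of a collagen receptor, at chr1:145891208-145910189 on the minus strand (ENSG00000143127). ITGA10 had 23.0, 26.3, 11.5 and 27.6 CPM in decitabine tumours, against 42.4, 53.7, 64.0 and 66.2 CPM in vehicle tumours. Its mean of 22.1 ± 7.32 CPM with decitabine stood against 56.6 ± 10.9 CPM with vehicle (SD, n = 4 each), a difference of -1.36 (log2, SE 0.22, adjusted p = 0.00315). Across the fits that left out 1 of the 8 libraries, the adjusted p-values of the 6 genes lay between 6.7e-05 and 0.0258.

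**Figure D2:**
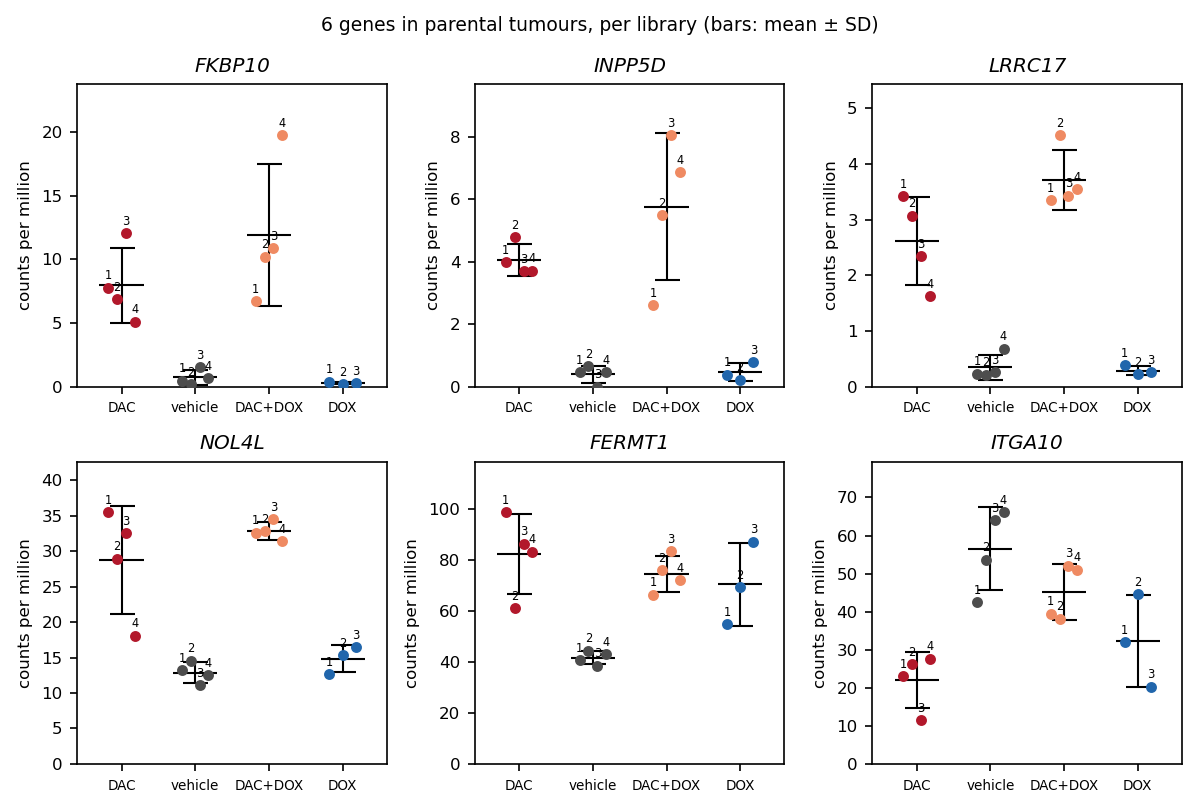
Level in CPM of the 6 genes that were called whichever 1 of the 8 libraries was left out, in each library of decitabine, vehicle, decitabine plus doxorubicin and doxorubicin parental tumours. Points are libraries and bars are the mean and SD. FKBP10, INPP5D, LRRC17 and NOL4L were higher with decitabine in both pairs of groups, whereas FERMT1 and ITGA10 differed in the pair without doxorubicin.

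The 250 bases before the RefSeq start of ITGA10 and NOL4L, and of INPP5D, LRRC17 and ALDH1A3, which had positive differences in all 3 comparisons made here and were chosen after their values were seen, are shown because DNA methylation in mammals falls mainly on CpG pairs. These pairs are in capitals. The sequences are credited to RefSeq on GRCh38.p14 and are written in the direction of the gene, at chr1:145910051-145910300 (minus strand), chr20:32585334-32585583 (minus strand), chr2:233060092-233060341 (plus strand), chr7:102912750-102912999 (plus strand) and chr15:100879581-100879830 (plus strand).
NOL4L: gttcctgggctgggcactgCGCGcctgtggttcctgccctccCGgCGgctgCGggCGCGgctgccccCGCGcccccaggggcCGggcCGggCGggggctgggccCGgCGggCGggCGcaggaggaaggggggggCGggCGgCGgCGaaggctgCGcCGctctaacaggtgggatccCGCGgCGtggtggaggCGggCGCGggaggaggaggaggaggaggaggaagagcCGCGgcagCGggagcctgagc
INPP5D: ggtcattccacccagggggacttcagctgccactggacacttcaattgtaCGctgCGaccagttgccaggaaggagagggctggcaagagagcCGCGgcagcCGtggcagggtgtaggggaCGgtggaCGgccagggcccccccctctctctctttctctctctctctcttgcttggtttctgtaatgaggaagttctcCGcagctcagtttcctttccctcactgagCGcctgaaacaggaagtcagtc
LRRC17: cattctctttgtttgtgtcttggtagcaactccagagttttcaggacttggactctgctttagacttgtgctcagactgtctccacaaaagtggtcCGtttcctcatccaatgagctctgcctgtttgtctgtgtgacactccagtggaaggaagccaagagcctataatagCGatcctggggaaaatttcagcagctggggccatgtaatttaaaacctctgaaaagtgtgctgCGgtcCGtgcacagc
ALDH1A3: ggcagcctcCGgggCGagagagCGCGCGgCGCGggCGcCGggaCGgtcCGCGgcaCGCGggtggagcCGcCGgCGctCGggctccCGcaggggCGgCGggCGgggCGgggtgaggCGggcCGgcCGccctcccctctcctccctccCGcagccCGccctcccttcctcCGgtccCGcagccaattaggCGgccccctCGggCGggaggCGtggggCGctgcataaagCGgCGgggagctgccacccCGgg
ITGA10: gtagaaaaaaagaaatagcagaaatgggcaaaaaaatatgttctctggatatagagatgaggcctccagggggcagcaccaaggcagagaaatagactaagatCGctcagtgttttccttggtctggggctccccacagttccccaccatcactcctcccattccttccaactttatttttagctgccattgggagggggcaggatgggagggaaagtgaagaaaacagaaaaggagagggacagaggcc
The windows held 31 CpG in NOL4L, 9 in INPP5D, 4 in LRRC17, 38 in ALDH1A3 and 1 in ITGA10. Over the 10019 tested genes with such a window the median was 21 CpG. As many CpG as in ALDH1A3 were held by 5.27% of the windows, as many as in NOL4L by 18.6%, as many as in INPP5D by 86.9%, as many as in LRRC17 by 94.3% and as many as in ITGA10 by 99.1%. The windows of the 4 genes higher with decitabine ranged from CpG-rich to CpG-poor.

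CD70, CDH13 and ALDH1A3 also rose. CD70, a ligand of the tumour necrosis factor family, had 8.16, 6.33, 7.41 and 2.09 CPM in decitabine tumours, against 0.696, 0.869, 0.772 and 0.228 CPM in vehicle tumours (3.19 on the log2 scale, SE 0.59, adjusted p = 0.0108). CDH13, a cadherin held to the membrane by a lipid anchor, had 9.49, 11.7, 9.16 and 7.66 CPM with decitabine, against 4.41, 4.56, 3.09 and 3.42 CPM with vehicle (log2 difference 1.29, SE 0.29, adjusted p = 0.0271). ALDH1A3, which makes retinoic acid from retinaldehyde, had 11.2, 9.59, 12.7 and 6.27 CPM with decitabine, against 3.48, 3.69, 3.34 and 5.47 CPM with vehicle (log2 difference 1.31, SE 0.27, adjusted p = 0.0182). In each of the 3 genes all decitabine libraries were above all vehicle libraries. CD70 had too few counts to be tested in the fit of the 8 libraries alone. Without decitabine library 3 none of the 3 was called (adjusted p from 0.0535 to 0.121), without vehicle library 3 or vehicle library 4 1 was called, and without decitabine library 2 there were 2.

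No count was found in any vehicle library for 4 called genes, which were chosen for that after their values were seen. CD93, a surface glycoprotein of endothelium and myeloid cells, had 2.28, 1.92, 2.92 and 0.696 CPM in decitabine tumours, or 40 counts, at least 11.5-fold higher than a floor of 3 counts over the vehicle group (adjusted p = 0.0182). SULT1B1, a sulfotransferase, had 5.13, 0.767, 2.34 and 0.928 CPM in decitabine tumours, or 47 counts, at least 13.5-fold higher (adjusted p = 0.0226). NRIP3 had 27 counts, at least 7.76-fold higher (adjusted p = 0.0108). SLC7A7, the light chain of an amino acid exchanger, had 26 counts, at least 7.48-fold higher (adjusted p = 0.0325). All 4 were detected in every decitabine library. All 4 had too few counts to be tested in the fit of the 8 libraries alone and entered the test through the filter on all 29 libraries. As they were picked for having no vehicle count, their folds and p-values are a description only. None of them was called without decitabine library 3, where the adjusted p lay between 0.0535 and 0.175, and 1 was called without vehicle library 4 and 2 without vehicle library 3.

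**Figure D3:**
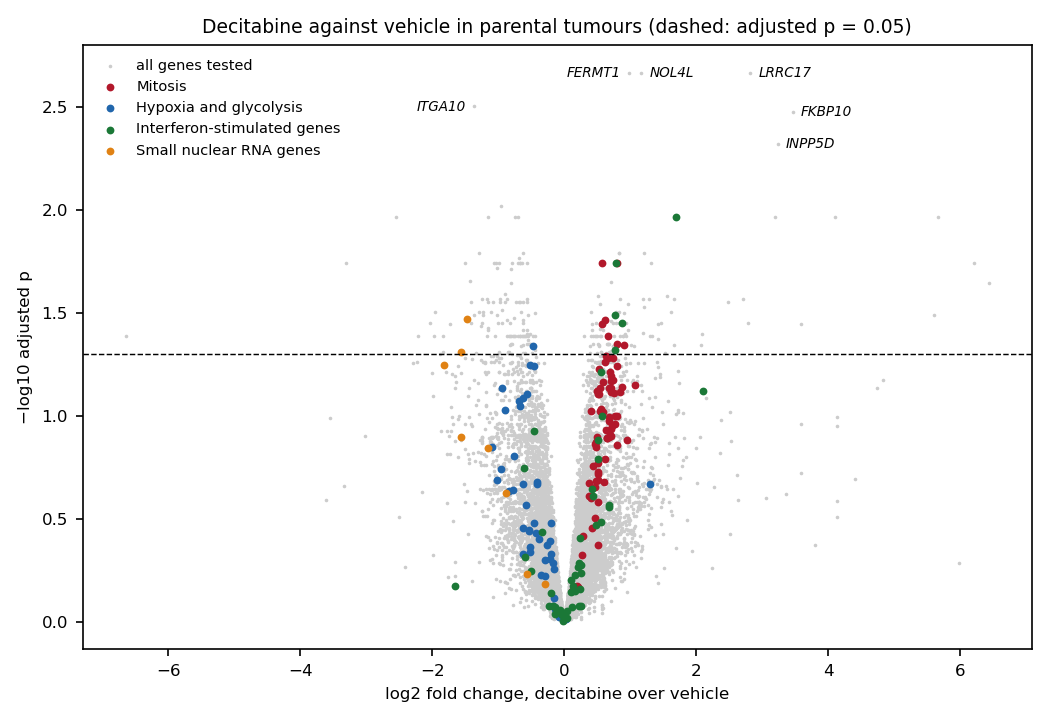
Fitted log2 difference of decitabine over vehicle parental tumours (horizontal axis) against the negative log10 of the adjusted p (vertical axis). The 13495 genes tested are shown, with 4 gene groups in colour. All 74 mitosis genes lie right of 0 and all 8 small nuclear RNA genes left of it.

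Genes of mitosis were higher together in decitabine tumours. Of 74 mitosis genes tested, 7 were called higher and none lower (background 0.793% and 0.874%), and all 74 differences were positive, with a median of 0.62 on the log2 scale against 0.0063 over all genes tested. Their summed level was 7655, 8505, 10590 and 8742 CPM in decitabine libraries, against 7514, 5983, 6557 and 4474 CPM in vehicle libraries. All decitabine libraries were therefore above all vehicle libraries, by a small margin between decitabine library 1 and vehicle library 1. At an unadjusted p under 0.05 there were 65 of the 74 genes, where 2587 of 13495 genes reached that level. The groups did not overlap in 24 of the 74, against 9.46% of all genes tested. In bulk tumours, fewer cells of a type and less RNA per cell cannot be told apart, and this holds for every gene group below.

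Within mitosis, the median difference was 0.72 for 18 kinetochore genes, 0.61 for 20 genes of the spindle and cytokinesis, 0.57 for 15 genes of condensin, cohesin and anaphase, 0.51 for 17 kinases and cyclins and 0.33 for 4 genes of the chromosomal passenger complex. BIRC5, the survivin subunit of that complex, had 72.9, 72.9, 84.0 and 62.9 CPM with decitabine and 54.2, 46.9, 32.9 and 33.5 CPM with vehicle (log2 difference 0.80, SE 0.17, adjusted p = 0.0182). CDK1, the kinase that drives entry into mitosis, had 154, 161, 209 and 162 CPM with decitabine and 136, 113, 112 and 84.0 CPM with vehicle (log2 difference 0.63, SE 0.15, adjusted p = 0.0344). In both genes the groups were separate. CENPU, of the inner kinetochore, averaged 89.1 ± 9.58 CPM with decitabine and 56.2 ± 9.04 CPM with vehicle (SD, n = 4 each). NUF2, of the outer kinetochore, and KIF20A, a kinesin of cytokinesis, were called with differences of 0.80 and 0.91, but 1 vehicle library overlapped the decitabine range in NUF2 and 2 did in KIF20A. SMC2, a condensin subunit, and UBE2C, the ubiquitin-conjugating enzyme of anaphase, were the other called genes, at 0.57 and 0.58. Called mitosis genes numbered 0 without decitabine library 3, vehicle library 3 or vehicle library 4, 4 without decitabine library 2 or vehicle library 2, 15 without decitabine library 4 and 45 without vehicle library 1. The median lay between 0.51 and 0.77 in those fits, and DESeq2 called 29 of the 74 higher and none lower.

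DNA replication genes showed the same direction with smaller differences. Of 49 tested, 48 differences were positive, the median was 0.33, and 3 genes were called higher (background 0.793%). ORC6, a subunit of the origin recognition complex, had 30.9, 24.4, 39.0 and 23.0 CPM with decitabine and 15.3, 13.04, 13.4 and 9.12 CPM with vehicle (log2 difference 1.21, SE 0.24, adjusted p = 0.0163). CLSPN, which encodes the checkpoint mediator claspin, had 141, 158, 274 and 180 CPM with decitabine and 124, 88.2, 111 and 63.0 CPM with vehicle (log2 difference 0.96, SE 0.24, adjusted p = 0.0382). POLD3, a subunit of DNA polymerase delta, averaged 43.1 ± 5.27 CPM with decitabine and 30.4 ± 4.01 CPM with vehicle (SD, n = 4 each). None of the 3 genes had overlapping groups. The cohesin acetyltransferase ESCO2 rose by 1.21 (log2, SE 0.28, adjusted p = 0.0297) and RRM2, the inducible subunit of ribonucleotide reductase, by 0.79 (SE 0.18, adjusted p = 0.0313). RRM2 was the 1 called gene among 12 of nucleotide synthesis, all of which had positive differences, with a median of 0.31. The called replication genes numbered 0 without decitabine library 3 or vehicle library 4, 1 without vehicle library 3, 7 without decitabine library 4 and 11 without vehicle library 1.

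Genes of DNA repair and checkpoints were called in both directions. Of 41 tested, 4 rose and 1 fell (background 0.793% and 0.874%), and the median difference was 0.33. All 14 genes of homologous recombination had positive differences (median 0.53), and 3 of them were called. Among the called was RBBP8, which starts resection of broken ends and rose by 0.47 on the log2 scale. CHEK1, the kinase of the replication checkpoint, had 73.5, 77.7, 83.8 and 75.7 CPM with decitabine and 60.3, 55.2, 43.7 and 44.3 CPM with vehicle (log2 difference 0.61, SE 0.15, adjusted p = 0.0353). WEE1, the kinase that restrains CDK1, fell, with 51.3, 51.0, 43.1 and 68.9 CPM in decitabine tumours and 70.7, 78.4, 97.2 and 84.6 CPM in vehicle tumours (log2 difference -0.63, SE 0.17, adjusted p = 0.0495). Among 24 genes that control passage from G1 to S phase, 21 differences were positive and the 1 called gene fell. It was CDKN1C, an imprinted inhibitor of cyclin-dependent kinases, with 22.6, 22.2, 8.58 and 22.1 CPM with decitabine and 26.7, 40.6, 34.2 and 48.6 CPM with vehicle (log2 difference -0.99, SE 0.24, adjusted p = 0.0355). Called repair genes numbered 0 without decitabine library 3, vehicle library 3 or vehicle library 4, 2 without decitabine library 2, 1 without vehicle library 2 and 10 without vehicle library 1.

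**Figure D4:**
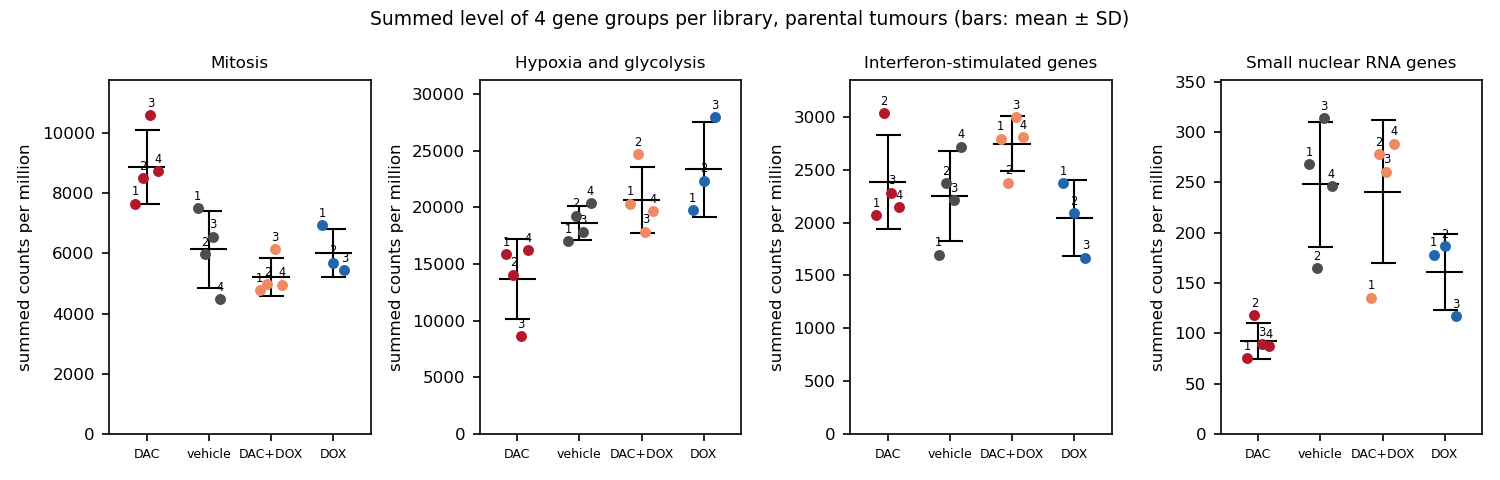
Summed CPM of the mitosis, hypoxia and glycolysis, interferon-stimulated and small nuclear RNA genes in each library of the 4 parental groups, with mean and SD. Decitabine libraries held 7655 to 10590 CPM of mitosis genes and vehicle libraries 4474 to 7514. For hypoxia and glycolysis genes these ranges were 8597 to 16230 and 17030 to 20340.

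Glycolytic enzymes and targets of the hypoxia-inducible factors were lower together. Of 44 such genes tested, 42 differences were negative, among them all 22 of the glycolytic enzymes, and the median was -0.46. Their summed level was 15870, 14060, 8597 and 16230 CPM in decitabine libraries and 17030, 19260, 17810 and 20340 CPM in vehicle libraries. Every decitabine library was below every vehicle library, and decitabine library 3 was far the lowest. Only GPI, the glucose phosphate isomerase, was called, with 334, 335, 265 and 409 CPM in decitabine tumours and 456, 435, 509 and 456 CPM in vehicle tumours (log2 difference -0.47, SE 0.12, adjusted p = 0.0457). GPI was not called under DESeq2's size factors, and it kept its call without decitabine library 4 or vehicle library 1 but lost it without any other of the 8. At an unadjusted p under 0.05 there were 19 of the 44 genes, against 19.2% of all genes tested, and DESeq2 called 4 lower. Without decitabine library 3 the median was -0.28.

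Small nuclear RNAs, the RNA cores of the spliceosome, were lower in all 8 genes tested, with a median of -1.31 and 2 genes called (background 0.874%). RNU4ATAC, the U4 RNA of the minor spliceosome, had 45.2, 92.6, 78.6 and 63.4 CPM in decitabine tumours and 200, 121, 264 and 190 CPM in vehicle tumours (log2 difference -1.47, SE 0.34, adjusted p = 0.034). RNU4-2, the U4 RNA of the major spliceosome, had 10.2, 8.63, 3.31 and 6.96 CPM with decitabine and 28.3, 18.5, 15.9 and 23.5 CPM with vehicle (log2 difference -1.56, SE 0.41, adjusted p = 0.049). The groups were separate in both. RNU4-2 has near-identical copies among which reads could be split, and its call was lost in each of the 8 fits that left out 1 library. RNU4ATAC was lost without decitabine library 1, decitabine library 3, vehicle library 3 or vehicle library 4. These RNAs carry no poly(A) tail, so libraries primed on such tails count them as carry-over, and the part of that step in the difference was not tested. The summed level of the small nuclear RNAs was 75.0, 118, 88.9 and 87.5 CPM with decitabine and 268, 165, 314 and 246 CPM with vehicle. RNU4ATAC alone made up most of this sum in every library, so the sum says little of the other genes. Cytosolic ribosomal protein genes had a median of -0.12, with 53 of 79 differences negative.

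Interferon-stimulated genes were in part higher. Of 46 tested, 5 were called higher and none lower (background 0.793% and 0.874%), 32 differences were positive, and the median was 0.22. OASL, an antiviral protein related to the oligoadenylate synthetases, had 20.3, 31.3, 24.4 and 12.5 CPM in decitabine tumours and 5.10, 9.34, 4.89 and 7.76 CPM in vehicle tumours (log2 difference 1.70, SE 0.32, adjusted p = 0.0108). IFIT2, which binds viral RNA, had 41.8, 55.2, 51.7 and 29.2 CPM with decitabine and 19.9, 22.4, 27.3 and 27.8 CPM with vehicle (log2 difference 0.87, SE 0.21, adjusted p = 0.0355). HERC5, the ligase that attaches the ubiquitin-like protein ISG15, had 41.0, 60.2, 51.5 and 36.4 CPM with decitabine and 26.9, 29.3, 25.7 and 28.3 CPM with vehicle (log2 difference 0.78, SE 0.18, adjusted p = 0.0325). The groups were separate in the 3 genes, and also in IFI44, which averaged 41.2 ± 8.95 CPM with decitabine and 23.9 ± 2.35 CPM with vehicle (SD, n = 4 each). IFIT3 was the fifth, at 0.77. Summed over the whole list the groups overlapped, with 2073, 3034, 2283 and 2149 CPM with decitabine and 1697, 2374, 2212 and 2718 CPM with vehicle. The number called was 0 without decitabine library 3, 1 without vehicle library 4, and 2 without decitabine library 2, vehicle library 2 or vehicle library 3. Without decitabine library 2, the library with the highest sum, the median was 0.058.

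Upstream of these genes, the 7 sensors of nucleic acids tested had positive differences, with a median of 0.55. None of the 7 was called by edgeR or DESeq2, while 4 had an unadjusted p under 0.05, against 19.2% of all genes tested. IRF9, the DNA-binding part of the complex that drives interferon-stimulated genes, went the other way, with 1.33, 1.92, 1.36 and 1.16 CPM in decitabine tumours and 2.78, 3.69, 8.75 and 4.56 CPM in vehicle tumours (log2 difference -1.73, SE 0.42, adjusted p = 0.0358). Genes of antigen presentation by class I molecules had a median of 0.20, and of 15 tested none was called by edgeR, 6 had an unadjusted p under 0.05, and DESeq2 called 2 higher. B2M, the invariant chain of class I, differed by -0.11 (SE 0.12, adjusted p = 0.614). The 8 class II genes had a median of -0.68 and none was called by edgeR or DESeq2 or reached an unadjusted p of 0.05.

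With all libraries, edgeR did not call the methyltransferases on which the drug acts, while DNMT1 was called in other fits. DNMT1 had 333, 317, 374 and 306 CPM in decitabine tumours and 260, 265, 194 and 196 CPM in vehicle tumours, with no overlap (log2 difference 0.54, SE 0.15, adjusted p = 0.0516). DNMT1 was called higher by DESeq2 (adjusted p = 0.0193) and, in edgeR, with DESeq2's size factors (adjusted p = 0.0478), with no filter (adjusted p = 0.00722) and with a replicate block (adjusted p = 0.0408). It was also called without decitabine library 4 (adjusted p = 0.0425) or vehicle library 1 (adjusted p = 0.0283), and without vehicle library 3 its difference was 0.48 (adjusted p = 0.15). DNMT3A had 14.6, 15.7, 20.5 and 17.2 CPM with decitabine and 16.9, 13.9, 19.8 and 13.7 CPM with vehicle (log2 difference 0.083, SE 0.18, adjusted p = 0.833), and its sign turned without decitabine library 3. DNMT3B had 5.51, 11.7, 21.1 and 11.4 CPM with decitabine and 9.97, 7.82, 11.1 and 6.62 CPM with vehicle (log2 difference 0.49, SE 0.35, adjusted p = 0.45). Of 22 genes of the methylation machinery, edgeR called none and DESeq2 called 2 higher. Of the 22, 6 had an unadjusted p under 0.05, against 19.2% of all genes tested.

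Cancer-testis genes, germline genes and genes often methylated in breast cancer held no member that edgeR called with all libraries. Of 36 cancer-testis genes, 17 had no count in the 8 libraries and 12 could be tested. Among those 12 none was called by edgeR and DESeq2 called 2 higher. Of the 12, 5 had an unadjusted p under 0.05, against 19.2% of all genes tested. edgeR called 2 of the 12 higher without decitabine library 4 or without vehicle library 1. MAGEB2, a cancer-testis gene named here after its values were seen, averaged 0.719 CPM with decitabine and was at 0 in every vehicle library (adjusted p = 0.0673). The median difference of the 8 X-linked members was 0.167 for decitabine alone, 1.12 on top of doxorubicin and 2.25 in resistant tumours. SPANXB1, the cancer-testis gene with the highest level, averaged 694 CPM with decitabine and 668 CPM with vehicle (log2 difference 0.053, adjusted p = 0.921), and TTK, a spindle checkpoint kinase, 60.6 ± 10.1 CPM with decitabine and 42.5 ± 7.28 CPM with vehicle (log2 difference 0.51, SE 0.16, adjusted p = 0.0783). Only 4 of 32 germline and meiosis genes could be tested, and edgeR and DESeq2 called none, with 1 at an unadjusted p under 0.05. Of 38 genes often methylated in breast cancer, 18 could be tested, with a median of 0.036, and edgeR and DESeq2 called none, with 2 at an unadjusted p under 0.05. UCHL1, a deubiquitinase of that list named after its values were seen, averaged 0.433 CPM with decitabine and was at 0 in every vehicle library (adjusted p = 0.31). The 3 endogenous retroviral genes tested had differences from -0.66 to -0.069, none of them called by edgeR or DESeq2 or at an unadjusted p under 0.05. Genes with few counts in all groups were not tested, so a low level of such a gene was not detectable at this depth. Among 19 imprinted genes, INPP5F, an inositol phosphatase, was higher (log2 difference 0.55, SE 0.14, adjusted p = 0.0412) beside CDKN1C, which was lower as described above. These were the 2 called of the 19, against 1.67% of all genes tested. Of the 19, 8 had an unadjusted p under 0.05, against 19.2% of all genes tested.

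VCAN, KRT81 and MMP3 were among the other called genes that were higher in decitabine tumours. VCAN, the matrix proteoglycan versican, had 21.6, 14.2, 19.3 and 12.5 CPM with decitabine and 5.33, 7.39, 5.14 and 3.42 CPM with vehicle (log2 difference 1.66, SE 0.37, adjusted p = 0.0271). KRT81, a hair-type keratin, had 13.3, 16.9, 30.6 and 17.4 CPM with decitabine and 5.80, 9.13, 8.49 and 2.97 CPM with vehicle (log2 difference 1.57, SE 0.34, adjusted p = 0.0263). MMP3, a matrix metalloprotease, had 3.61, 3.83, 7.21 and 4.18 CPM with decitabine and 0.696, 1.30, 0.772 and 1.597 CPM with vehicle (log2 difference 2.07, SE 0.54, adjusted p = 0.0451). The groups were separate in the 3 genes. SERPINB2, an inhibitor of plasminogen activators, rose by 2.71 (log2, SE 0.60, adjusted p = 0.0271), and the cytokine CSF3, which drives granulocyte production, by 2.79 (SE 0.67, adjusted p = 0.0355). Both SERPINB2 and CSF3 had too few counts to be tested in the fit of only the groups compared. RFX8 rose by 2.10, MAL2, a membrane protein of transcytosis, by 1.47 and RAB15, a GTPase of endosomes, by 1.33. FAS, the death receptor and a p53 target, had 4.37, 4.03, 7.02 and 3.25 CPM with decitabine and 2.09, 1.74, 1.29 and 0.684 CPM with vehicle (log2 difference 1.67, SE 0.44, adjusted p = 0.0451). Of these 9 genes and CST3 below, none was called without decitabine library 3 or vehicle library 4, 1 without vehicle library 3, and 3 without decitabine library 1, decitabine library 2 or vehicle library 2.

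CSF3 was the 1 called gene of 36 cytokines and NF-kB targets, FAS and CD70 were the called genes of 21 in the tumour necrosis factor families, and FAS was the 1 called of 29 p53 targets. Over all genes tested, 1.67% were called. Collagens and their processing enzymes held FKBP10 higher and COL18A1 lower among 44 tested. CST3, the protease inhibitor cystatin C, was the called inhibitor that fell (log2 difference -0.79, SE 0.20, adjusted p = 0.0447), with a range of 116 to 160 CPM in decitabine tumours that overlapped 146 to 355 CPM in vehicle tumours. Among 22 mesenchymal genes, 28 of the BCL2 family and caspases and 29 of receptor kinases and their ligands, edgeR called none. Unadjusted p-values under 0.05 were found in 2, 6 and 3 of these, against 19.2% of all genes tested, and DESeq2 called 0, 1 and 1.

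The genes that fell included FOS, a subunit of the AP-1 transcription factor, with 13.7, 10.7, 4.49 and 11.6 CPM in decitabine tumours and 31.3, 34.3, 34.5 and 56.8 CPM in vehicle tumours (log2 difference -1.95, SE 0.44, adjusted p = 0.0313). CYTIP, which binds cytohesins and is known from leukocytes, had 1.52, 4.03, 0.390 and 1.86 CPM with decitabine and 4.41, 10.4, 16.2 and 15.3 CPM with vehicle (log2 difference -2.55, SE 0.47, adjusted p = 0.0108). COL18A1, the collagen from which endostatin is cut, had 182, 206, 119 and 229 CPM with decitabine and 236, 346, 534 and 541 CPM with vehicle (log2 difference -1.17, SE 0.26, adjusted p = 0.0271). The groups were separate in each of these genes, and the lowest decitabine value was that of library 3 in all of them. ITGA3, a laminin-binding integrin subunit, fell by 0.53 (SE 0.14, adjusted p = 0.0447), and ABCC3, an efflux transporter, by 1.25 (SE 0.31, adjusted p = 0.0366). UCN, the peptide urocortin, had 4.56, 5.37, 2.92 and 5.57 CPM with decitabine and 11.4, 10.2, 10.0 and 9.12 CPM with vehicle (log2 difference -1.15, SE 0.22, adjusted p = 0.0108). The kinase genes STK32A and RPS6KA2 fell by 1.50 and 1.24 on the log2 scale. SIK1, a salt-inducible kinase, had 4 counts in decitabine tumours and 38 in vehicle tumours (log2 difference -3.30, SE 0.68, adjusted p = 0.0182). SIK1 had too few counts to be tested in the fit of the 8 libraries alone. FOS, CYTIP, COL18A1, ITGA3, ABCC3 and GPI were none of them called without decitabine library 3 or vehicle library 4, and 1 of these 6 was called without vehicle library 3, 2 without decitabine library 2 and 3 without decitabine library 1. Without vehicle library 3, UCN and SIK1 were called (adjusted p = 0.0295 and 0.0446), while STK32A and RPS6KA2 were not (adjusted p = 0.0509 and 0.0849). UCN and SIK1 were chosen after their values were seen.

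In parental tumours that also received doxorubicin, the same question can be put with separate libraries: 4 combination tumours against 3 doxorubicin tumours. There 41 genes (0.304%) were called for decitabine, 35 higher (0.259%) and 6 lower (0.0445%). Of the 107 genes higher with decitabine alone, 13 (12.1%) were also higher here, which is 37.1% of the 35. They include FKBP10, INPP5D, LRRC17, NOL4L, CD70, CDH13, ALDH1A3, CD93, NRIP3, IFIT2 and HERC5. FKBP10 had 6.70, 10.2, 10.9 and 19.8 CPM in combination tumours and 0.385, 0.220 and 0.261 CPM in doxorubicin tumours (log2 difference 5.21, SE 0.69, adjusted p = 0.000286). NOL4L had 32.6, 32.8, 34.5 and 31.5 CPM in combination tumours and 12.7, 15.4 and 16.4 CPM in doxorubicin tumours (log2 difference 1.15, SE 0.19, adjusted p = 0.00415). CD70 had 5.399, 4.91, 9.48 and 13.1 CPM in combination tumours and 0.962, 0 and 0.782 CPM in doxorubicin tumours (log2 difference 3.74, SE 0.64, adjusted p = 0.00446). In all 3 genes the groups were separate. FKBP10, INPP5D, LRRC17 and CDH13 stayed called when any of the 7 libraries was left out. CD70 lost its call without doxorubicin library 2, NOL4L and ALDH1A3 lost theirs without doxorubicin library 1, and CD93, NRIP3, IFIT2 and HERC5 lost theirs in 5 or more of the 7 fits. Of the 118 genes lower with decitabine alone, the transcription factor NFATC4 was also lower on top of doxorubicin, 0.847% of the 118 and 16.7% of the 6.

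FERMT1 and ITGA10 were not called on top of doxorubicin. FERMT1 had 66.5, 76.0, 83.5 and 72.3 CPM in combination tumours and 54.8, 69.4 and 87.3 CPM in doxorubicin tumours (log2 difference 0.085, SE 0.16, adjusted p = 0.871). ITGA10 had 39.5, 38.1, 52.1 and 51.0 CPM in combination tumours and 31.9, 44.6 and 20.3 CPM in doxorubicin tumours (log2 difference 0.48, SE 0.23, adjusted p = 0.422). The difference between the responses with and without doxorubicin was called in 1 gene (0.00741%), ITGA10, at 1.84 (log2, SE 0.32, adjusted p = 0.0459). That call held in 3 of the 15 fits that left out 1 of the libraries, those without decitabine library 4, doxorubicin library 2 or vehicle library 1, and the adjusted p reached 0.177 in the others. For FERMT1 the difference of responses was -0.90 (SE 0.22, adjusted p = 0.125).

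On top of doxorubicin, the gene groups had other medians. Mitosis genes had a median difference of -0.20 on top of doxorubicin, where 15 of 74 were positive and none was called by edgeR or DESeq2, with 8 at an unadjusted p under 0.05, against 11.7% of all genes tested, of which DESeq2 called 87. Their summed level was 4784 to 6138 CPM in combination tumours and 5437 to 6939 CPM in doxorubicin tumours. The test of the difference between both responses called none of the 74 in edgeR, while 54 had an unadjusted p under 0.05 and DESeq2 called 5. Over all genes tested, 1552 (11.5%) had such a p for this difference and DESeq2 called 73. Hypoxia and glycolysis genes had a median of -0.075 and small nuclear RNAs of 0.17 on top of doxorubicin. Interferon-stimulated genes had a median of 0.47, with 42 of 46 differences positive and 2 called higher by edgeR, IFIT2 and HERC5, while DESeq2 called 7 higher and 22 had an unadjusted p under 0.05. The difference of responses called none of the 46 interferon-stimulated genes in edgeR or DESeq2, and 6 had an unadjusted p under 0.05.

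**Figure D5:**
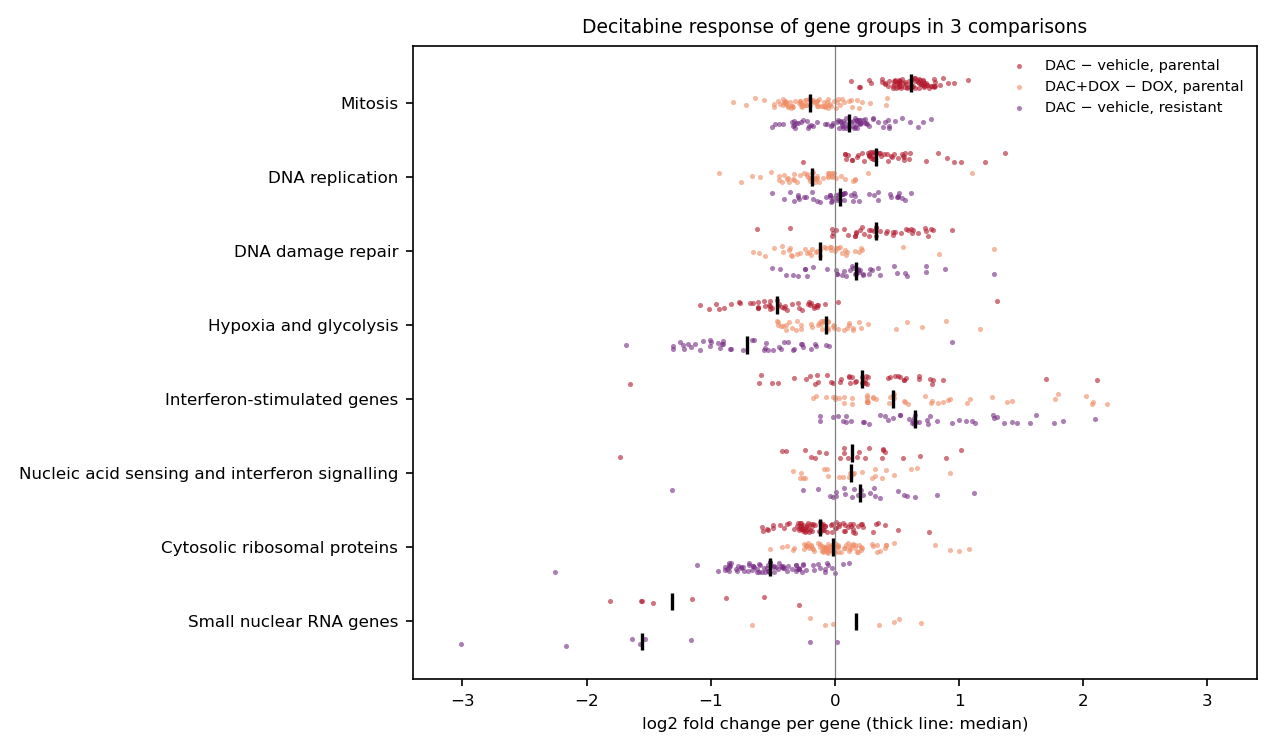
Fitted log2 differences per gene for 8 gene groups in 3 comparisons without shared libraries: decitabine over vehicle in parental tumours, decitabine plus doxorubicin over doxorubicin in parental tumours, and decitabine over vehicle in resistant tumours. Thick lines are medians. The mitosis medians were 0.62, -0.20 and 0.11, and those of interferon-stimulated genes 0.22, 0.47 and 0.65.

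In tumours of the paclitaxel-resistant line, where line, cell number and start of dosing cannot be told apart, the genes above had these differences between decitabine and vehicle. FKBP10 had 33.1, 29.7 and 28.7 CPM with decitabine and 7.53, 1.52, 2.49 and 0.904 CPM with vehicle, a difference of 3.29 (log2, SE 0.42). INPP5D differed by 4.04 (SE 0.59), LRRC17 by 3.99 (SE 0.48), NOL4L by 1.25 (SE 0.18), CDH13 by 2.87 (SE 0.27) and ALDH1A3 by 1.86 (SE 0.26). FERMT1 and ITGA10 differed by 0.14 (SE 0.16) and -0.047 (SE 0.23). Among gene groups, the median was 0.11 for mitosis, 0.65 for interferon-stimulated genes, -0.71 for hypoxia and glycolysis and -1.55 for small nuclear RNAs. RNU4ATAC differed by 0.018 in resistant tumours, unlike the list's median.

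The test of the difference between the lines called 16 genes (0.119%), 2 with a more positive (0.0148%) and 14 with a more negative (0.104%) response in parental tumours. FCGRT, the neonatal Fc receptor, fell in parental tumours, with 15, 17.8, 11.1 and 18.3 CPM with decitabine and 22.0, 31.5, 34.0 and 42.4 CPM with vehicle (log2 difference -1.06, SE 0.22, adjusted p = 0.0182). In resistant tumours it had 16.2, 32.2 and 17.0 CPM with decitabine and 8.01, 5.32, 8.82 and 6.78 CPM with vehicle (1.57). The difference of the responses was -2.63 (SE 0.35, adjusted p = 0.000333), and it was called with any of the libraries left out. Opposite signs were also seen in HTRA1, a secreted serine protease, at -1.03 in parental and 0.62 in resistant tumours (difference -1.65, adjusted p = 0.0134), and in NFATC4, at -0.94 and 0.83 (difference -1.77, adjusted p = 0.0113). POLM, a DNA polymerase of end joining, and NUP93, a nuclear pore scaffold, had differences of responses of -1.07 and 0.73. HTRA1, NFATC4 and NUP93 lost these calls without resistant decitabine library 2, HTRA1 also without parental vehicle library 4, and POLM in 5 of the fits that left out 1 library. Among the 74 mitosis genes, edgeR called no difference between the lines, 26 had an unadjusted p under 0.05, and DESeq2 called 7. Over all genes tested, 2640 (19.6%) had such a p for this difference and DESeq2 called 297.

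Markers of other cell types moved in part with the groups, and how reads of the mouse stroma were handled is not given in the sources used here. The 14 myeloid markers summed to 107, 141, 190 and 137 CPM in decitabine tumours and 112, 86.5, 97.2 and 73.0 CPM in vehicle tumours. ITGAM, TYROBP, SPI1, S100A8 and S100A9 were at 0 in all 8 libraries. Of the 7 myeloid markers tested, 5 differences were positive and 2 negative, from -0.741 to 2.52. Of these 7, 2 were called higher (background 0.793%). CTSS, the protease cathepsin S, had 9.30, 10.3, 22.2 and 13.7 CPM with decitabine and 7.19, 3.69, 6.95 and 6.39 CPM with vehicle (log2 difference 1.202, SE 0.27, adjusted p = 0.0271). LAPTM5, a lysosomal protein of blood cells, had 74.4, 101, 135 and 80.8 CPM with decitabine and 74.4, 56.7, 47.1 and 39.5 CPM with vehicle (log2 difference 0.85, SE 0.19, adjusted p = 0.0271), and the lowest decitabine value nearly met the highest vehicle value. LAPTM5 alone made up a large part of the myeloid sum in every library, so that sum says little of the other markers. The 12 fibroblast markers summed to 790, 848, 2133 and 1551 CPM in decitabine tumours and 1223, 1110, 1305 and 850 CPM in vehicle tumours, with PDPN at 0. Endothelial markers summed to 149 to 171 CPM with decitabine and 122 to 153 CPM with vehicle, with VWF at 0. Lymphocyte markers summed to 3.25 to 8.25 CPM with decitabine and 3.42 to 6.72 CPM with vehicle, with 6 of 10 at 0. Decitabine library 3, on which most calls depended, held the highest sums of mitosis, fibroblast and myeloid genes and the lowest sum of hypoxia and glycolysis genes among the 8. CTSS and LAPTM5 were not called without decitabine library 3, vehicle library 3 or vehicle library 4. The part of these cells in the differences above was not tested.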

How the data were processed

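Transcripts were measured in snap-frozen xenograft tumours with QuantSeq, which reads a tag near the poly(A) end, so counts do not scale with transcript length. The authors deposited raw counts per gene as whole numbers. The submitters' processing notes name STAR 2.7.3a, featureCounts, cutadapt and DESeq2, and the build GRCh38.p10. The annotation release, the strand setting and the handling of mouse reads are not given in the sources used here, so genes that overlap or have near-identical copies are uncertain.

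Groups were taken from the sample titles. Low counts were removed by filterByExpr at a minimum count of 10 and a total of 15, which kept 13495 of 58302 genes and 99.72% of counts. All 29 libraries entered 1 quasi-likelihood fit in edgeR 4.0.16 (R 4.3.3) with 8 group means, with TMM scaling (factors 0.896 to 1.07). Benjamini-Hochberg adjustment ran over all genes of a contrast. All p-values are from this test unless DESeq2 1.42.0 is named. Calls were made where the adjusted p was under 0.05. CPM are relative to the scaled library size. A group without counts was set to a floor of 3 counts over the group, which covers counting error only. Steps were tested on simulated counts.

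Genes were named if called in every fit that left out 1 of the 8 libraries, at 5 CPM or more in the group with the larger mean, or if among the 12 largest called changes per direction without overlap. Up to 4 called members of each gene list, 2 abundant members of lists without calls, and DNMT1, DNMT3A and DNMT3B were added. The text prints a part of these, some genes are not reported here, and genes outside the rule are marked or named for their place in a comparison between groups. The members and gene lists were chosen with earlier results of these data known. Positions of genes are from GENCODE 29 and promoters from RefSeq. Promoter windows matched 62.6% of genes called higher and 72% of genes called lower, under 80%, so a comparison of CpG between these sets is void. Libraries of 1 group differed by more than sampling noise in every pair (chi-square over its degrees of freedom at least 4.29). Pairing by replicate number was not seen. Deviations of same-numbered decitabine and vehicle libraries had correlations of 0.109, 0.0914, -0.0299 and -0.0906, against -0.451 to 0.497 for libraries of unlike number. With 4 libraries a group, these values cannot exclude mice or batches shared by number.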

Additional observations from a re-analysis of the deposited data

Results flagged for a closer look

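In 132 checks of 4 libraries over 66 genes, 11 had a library far from the other 3, and chance gives about 1 in 20. Decitabine library 3 was the far one in 6 of them, with 7.215 CPM for MMP3, 50.9 CPM for POLD3, 18.33 CPM for ESCO2, 208.7 CPM for CDK1, 182.7 CPM for NUP93 and 8.58 CPM for CDKN1C. Decitabine library 2 stood apart for ABCC3 at 3.835 CPM. Vehicle library 4 stood apart for LRRC17 at 0.6844 CPM, ALDH1A3 at 5.475 CPM, FOS at 56.8 CPM and ABCC3 at 11.63 CPM.

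The response to decitabine differed by doxorubicin in ITGA10, by 1.84 on the log2 scale, in the test of that difference. It differed by line, as parental minus resistant response, in FCGRT by -2.63, in HTRA1 by -1.65, in NFATC4 by -1.77, in POLM by -1.07 and in NUP93 by 0.729. All 6 genes were also called for decitabine against vehicle in parental tumours, but these flags were sought only among genes picked for the text. Of all 16 genes that differed by line, 1 was among the 107 called higher and 5 were among the 118 called lower. The others were not called for decitabine alone, such as ITGBL1, at 0.474 in parental and 6.07 in resistant tumours. These tests use the same parental libraries as the comparison itself.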

How the results depend on the processing

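The 225 genes called for decitabine alone became 499 with DESeq2, 942 with no filter, 338 with a replicate block, 96 with both libraries that stood apart left out (vehicle library 3 and resistant decitabine library 2, an alternative chosen after seeing the data) and 2 in the fit of only the groups compared. Leaving out 1 library gave 6 to 608 calls. A CPM filter gave 188, DESeq2's size factors 219 and upper quartile scaling 234, with 35.9% of calls higher against 47.6% in the reported split. For decitabine on top of doxorubicin (41 genes), DESeq2 gave 87, no filter 305 and leaving out both libraries 65, and leaving out 1 library gave 7 to 34. For the difference by doxorubicin (1 gene), DESeq2 gave 73, no filter 311, and 0 were called with both libraries left out, in the fit of only the groups compared or with the replicate block, where 1749, 1693 and 1489 genes had an unadjusted p under 0.05. Leaving out 1 library gave 0 to 2. For the difference by line (16 genes), DESeq2 gave 297, no filter 1001, upper quartile scaling 32, only the groups compared 1 and both libraries left out 7, and leaving out 1 library gave 7 to 299. Replicate numbers did not pair the libraries, and the replicate block also gave 40 genes on top of doxorubicin and 19 by line. DNMT3A, which was not called, had a log2 difference of -0.00964 without decitabine library 3, and its values lay between -0.00964 and 0.21 with 1 library left out. Of 63 named genes called for decitabine alone, 33 lost their call with both libraries left out, and of the 54 that could be fitted in the 8 libraries alone 52 lost theirs. The cause was not tested.

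With 4 tumours a group, most calls rest on decitabine library 3 and vehicle libraries 3 and 4, and on a spread estimated over all groups. At 4022389 to 5166195 counts a library, genes with a few counts were at the limit of the test.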
